A study of Mus musculus with 4 samples.

Results

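The gelsolin family and a small set of other actin regulators were followed in cultured bladder epithelial colonies with and without p63, a transcription factor of basal epithelial cells encoded by Trp63. The 10 genes were Scin, Gsn, Avil, Capg, Flii and Svil of the gelsolin superfamily, the EF-hand genes Aif1l, Efhd1 and Efhd2, and the membrane linker Ezr. They were chosen by name, with their values in this comparison already known, and each was matched to the transcript cluster that carried its symbol alone in the platform annotation. A transcript cluster is the array's group of probes for 1 gene. All 10 were found with 1 cluster each, out of 14860 genes and 23332 clusters measured.

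RNA was hybridised to Affymetrix Mouse Exon 1.0 ST arrays, with 2 arrays of p63 knockout cultures and 2 of wild-type cultures. Both kinds of culture were started from the bladder of newborn C57BL/6j pups. The bladders were digested with collagenase, the epithelial stem cells were grown on a feeder layer of 3T3 fibroblasts, and RNA came from picked colonies. A picked colony can carry feeder cells along with it. The labels do not say whether 2 arrays of a group came from separate pups, litters or cultures, so the spread between them may be technical. The values are log2 intensities as deposited, where a difference of 1 is a change of 2-fold.

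Actin filaments grow and shrink at their ends, and cells set their shape and stiffness by cutting, capping, bundling and anchoring those filaments. Proteins of the gelsolin superfamily bind filaments through repeated gelsolin domains, and many of them sever filaments or cap the fast-growing end when calcium rises. The EF-hand proteins of this set carry calcium-binding loops and have been linked to actin bundling, while ezrin ties filaments to the plasma membrane in microvilli. In the bladder, the surface cells of the urothelium reshape their apical membrane and its actin cortex as the organ fills.

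The labels were checked on the targeted gene. Trp63 was at 4.60 and 4.74 log2 units on the knockout arrays, against 8.98 and 8.99 on the wild-type arrays, and fell by 4.32 on the log2 scale (limma adjusted p = 0.015). The sources used here do not say which part of Trp63 was disrupted, so probes behind this value may lie outside it. The 4 measured epithelial markers of 6 listed were well above silent genes in both groups, with a median log2 difference of -0.87. Epcam averaged 8.84 ± 0.11 in knockout cultures and 8.56 ± 0.01 in wild-type cultures, and Krt18 averaged 10.68 ± 0.07 and 11.31 ± 0.02 (SD, n = 2 each). Cdh1 and Krt19 had log2 differences of -1.11 and -1.38. The urothelial markers were all measured, and 8 of 8, Trp63 itself among them, fell in the knockout, with Krt5 at 4.89 ± 0.18 in the knockout against 10.52 ± 0.12 in the wild type (limma adjusted p = 0.015). Over all clusters, 123 passed the test, which is 0.527% of 23332, with 0.141% higher and 0.386% lower in the knockout. All of these calls rest on the 4 arrays together, since leaving out any 1 of them gave 0. The median log2 difference over the whole table was 0.12.

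Regulatory sequence is shown first for the 3 genes that were high in the knockout, Scin, Aif1l and Efhd1, and for Efhd2, the close relative of Efhd1 whose values barely differed between the groups. Each window runs from 250 bases before to 50 bases after the annotated start of the gene, 5′ to 3′ on the gene's own strand, from RefSeq on build GRCm38.p6. The submitters name another build, mm9, for the array data, and no position on it is given. The windows lie at chr12:40134179-40134478 on the minus strand for Scin, chr2:31950053-31950352 on the plus strand for Aif1l, chr1:87264103-87264402 on the plus strand for Efhd1 and chr4:141874871-141875170 on the minus strand for Efhd2. Capitals mark every match to the motifs searched, which in these windows were the GC box (GGGCGG) and, in Efhd2 alone of the 4, the TEAD site (GGAATG).
Scin: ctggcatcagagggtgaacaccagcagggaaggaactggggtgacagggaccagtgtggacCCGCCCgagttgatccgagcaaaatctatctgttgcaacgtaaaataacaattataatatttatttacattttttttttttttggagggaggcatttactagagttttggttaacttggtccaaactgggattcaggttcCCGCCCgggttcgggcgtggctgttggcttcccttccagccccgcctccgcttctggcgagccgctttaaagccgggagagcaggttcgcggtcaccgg
Aif1l: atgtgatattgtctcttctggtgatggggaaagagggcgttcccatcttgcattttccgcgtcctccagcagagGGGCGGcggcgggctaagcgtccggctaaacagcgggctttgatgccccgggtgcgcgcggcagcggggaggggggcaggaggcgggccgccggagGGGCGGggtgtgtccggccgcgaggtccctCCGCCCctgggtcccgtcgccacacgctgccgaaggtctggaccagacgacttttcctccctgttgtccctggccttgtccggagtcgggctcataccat
Efhd1: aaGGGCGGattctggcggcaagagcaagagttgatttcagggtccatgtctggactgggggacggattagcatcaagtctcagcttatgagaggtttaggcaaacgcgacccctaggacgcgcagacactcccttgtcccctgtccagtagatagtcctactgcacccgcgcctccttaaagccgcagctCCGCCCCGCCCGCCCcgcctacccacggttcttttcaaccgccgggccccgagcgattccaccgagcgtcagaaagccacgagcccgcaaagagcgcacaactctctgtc
Efhd2: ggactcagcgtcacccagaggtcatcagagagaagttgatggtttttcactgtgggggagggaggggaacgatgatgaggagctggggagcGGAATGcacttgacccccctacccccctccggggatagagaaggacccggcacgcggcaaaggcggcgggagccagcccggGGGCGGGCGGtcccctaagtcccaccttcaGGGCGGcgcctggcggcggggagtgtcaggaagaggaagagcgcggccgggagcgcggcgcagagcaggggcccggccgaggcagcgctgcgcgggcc

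A total of 7 motifs were searched on both strands: the GC box, the TEAD site, the AP-1 site (TGANTCA), the TATA box (TATAAA), the CCAAT box (CCAAT), and the CArG box of serum response factor and the half-site of the p53 family, both by their consensus. Windows were matched for 9 of the 10 genes, and Gsn had 3 of them. The GC box was in 7 of the 9 genes, and 35.7% of all 32851 windows of this length hold it. The first is a count of genes and the second a share of windows, not matched for base composition. The GC box was the one motif of the 7 found in the windows of Scin, Aif1l and Efhd1. The same held for the window of Flii, a gene not high in the knockout. Scin had 2 matches, at 189 and 49 bases before the start. Aif1l had 3, and Efhd1 had 4, of which 3 overlapped in one run that began 60 bases before the start. Efhd2 had 3 GC boxes and the TEAD site, a motif in 14.7% of all windows. The window of Ezr held the AP-1 site, found in 7.81% of all windows, at 32 bases before the start. The CCAAT box, in 37.4% of all windows, was in some of the windows of Gsn and in that of Avil. The TATA box (13.6% of all windows), the CArG box (1.63%) and the p53 family half-site (8.36%) were in 0 of the 9 genes' windows, which says only that these letters are not there. Base composition ranged from 43.0% G and C in Avil to 70.3% in Efhd2, against a median of 52.7% over all windows.

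Among the severing and capping proteins of the gelsolin superfamily, Scin stood apart. Scin encodes adseverin, also called scinderin, a calcium-dependent severing protein of secretory cells. Scin was at 7.39 and 7.10 log2 units on the knockout arrays, against 3.14 and 3.23 on the wild-type arrays. The groups were far apart, with both wild-type arrays below the level taken as a guide to silent genes. That guide, 5.08 log2 units, is the 95th percentile of 719 olfactory receptor clusters over the 4 arrays, and it lies close to the median of all clusters. The log2 difference was 4.06 with a standard error (SE) of 0.19, which is 16.7-fold. On its own array, Scin was above 85.6% and 82.3% of all clusters in the knockout, against 15.1% and 16.1% in the wild type. Only 0.137% of all clusters had a larger absolute difference than Scin. A fold against a level below the guide may be an understatement.

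Gsn, the founding member of the family and the widely expressed severing and capping protein gelsolin, ran the other way. Gsn was at 7.65 and 7.91 on the knockout arrays, against 8.45 and 8.41 on the wild-type arrays. The groups did not overlap, and the log2 difference was -0.65 (SE 0.18). The 2 knockout arrays differed from each other by 0.25, and the 2 wild-type arrays by 0.03. In size, Gsn's difference was exceeded by 25.1% of all clusters.

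Capg, a capping protein first known from macrophages, which covers filament ends without cutting them, was at 7.57 and 7.13 in the knockout, against 7.77 and 7.78 in the wild type. Both knockout values lay below both wild-type values, with a log2 difference of -0.43 (SE 0.22) that was close in size to the gap of 0.44 between the knockout arrays. Flii, the flightless homologue, combines gelsolin domains with leucine-rich repeats and acts in the nucleus as a coactivator as well as on actin. Flii was at 7.17 and 7.39 in the knockout, against 7.14 and 7.27 in the wild type, and the groups overlapped. Its log2 difference of 0.08 (SE 0.18) was below the median of 0.12 over all clusters. After quantile normalization, which brought that median to 0.0029, it was 0.09 and above it.

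Svil encodes supervillin, a large membrane-associated member of the family that binds both actin and myosin. Svil was at 6.01 and 6.43 in the knockout, against 6.29 and 6.43 in the wild type, so the groups overlapped (log2 difference -0.14, SE 0.22). Avil encodes advillin, a villin relative known from sensory neurons and tuft cells. Avil was at 4.49 and 4.43 in the knockout, against 4.47 and 3.80 in the wild type, all below the guide to silent genes. The groups overlapped (log2 difference 0.33, SE 0.28). The difference was 0.15 after quantile normalization and -0.0073 without the second wild-type array.

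Of the EF-hand genes, Aif1l and Efhd1 were high in the knockout, and Efhd2 was not. Aif1l encodes a protein close to the macrophage actin bundler Aif1 but expressed in other cell types. Aif1l was at 8.19 and 7.83 on the knockout arrays, against 4.59 and 4.67 on the wild-type arrays. The groups lay on either side of the guide to silent genes, and the log2 difference was 3.37 (SE 0.20), or 10.4-fold. Aif1 itself was at 4.26 and 4.66 in the knockout, against 3.79 and 4.25 in the wild type, below the guide on all 4 arrays.

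Efhd1, also called swiprosin-2 and mitocalcin, is a calcium-binding protein that has been placed at mitochondria. Efhd1 was at 6.54 and 6.30 in the knockout, against 3.71 and 3.73 in the wild type. The wild-type arrays differed from each other by 0.02 and the knockout arrays by 0.24, both small beside the log2 difference of 2.70 (SE 0.18, 6.51-fold). Efhd2, swiprosin-1, binds and crosslinks actin filaments in a calcium-dependent way. Efhd2 was at 5.99 and 6.11 in the knockout, against 6.15 and 6.25 in the wild type. The groups did not overlap, although only by a narrow margin, and the log2 difference was -0.15 (SE 0.17).

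Ezr encodes ezrin, the linker of the ezrin, radixin and moesin (ERM) family found at the apical membrane of epithelia. Ezr was at 8.53 and 8.72 in the knockout, against 8.85 and 8.87 in the wild type. The groups did not overlap, with a log2 difference of -0.23 (SE 0.17). The ERM relatives radixin and moesin, which are not among the 10 genes, had positive log2 differences of 0.84 and 0.68. Rdx averaged 8.73 ± 0.17 in knockout cultures and 7.89 ± 0.14 in wild-type cultures, and Msn averaged 8.95 ± 0.17 and 8.28 ± 0.08 (SD, n = 2 each). Neither passed the test (limma adjusted p = 0.13 for Rdx and 0.16 for Msn).

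**Figure D1:**
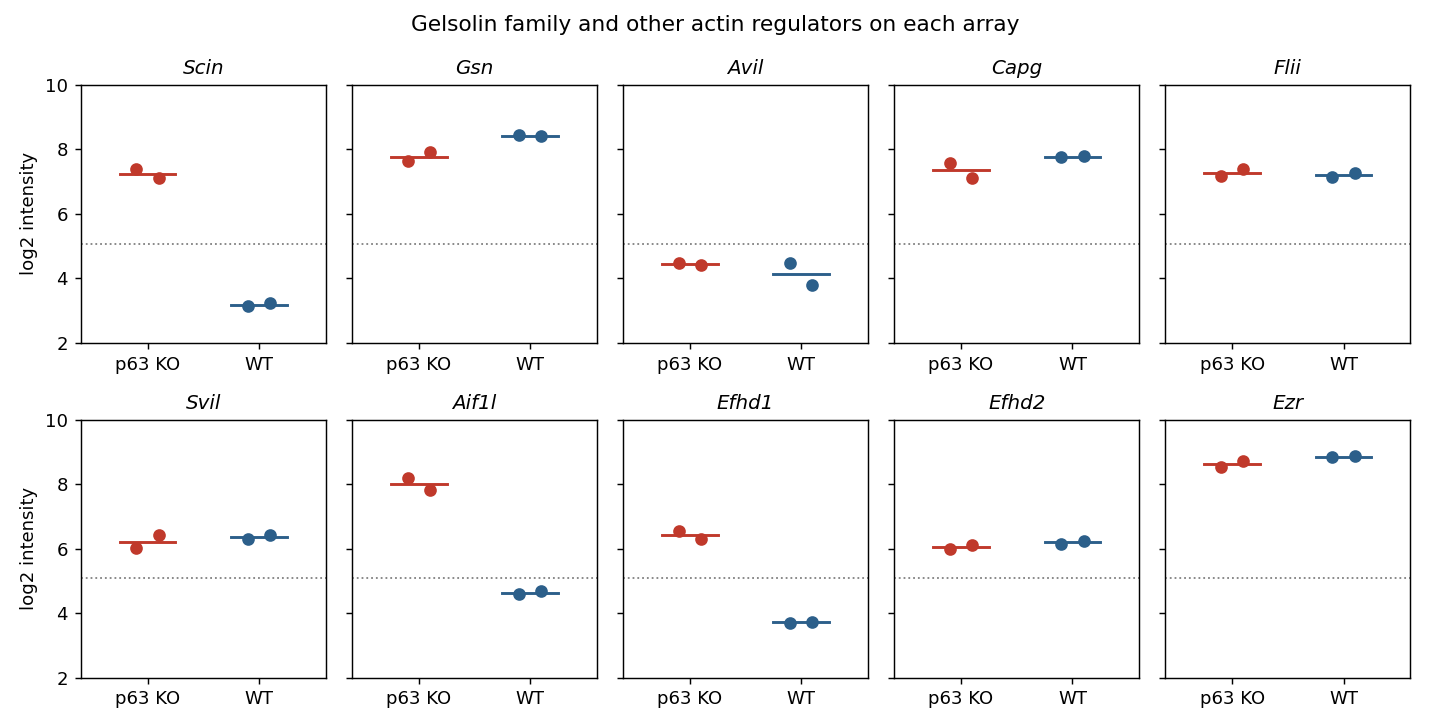
Log2 intensity (vertical axis) of the 10 genes on each of the 2 p63 knockout (red, KO) and 2 wild-type (blue, WT) arrays. Points are arrays, bars are group means, and the dotted line is the guide to silent genes at 5.08. Scin, Aif1l and Efhd1 lie above the line in the knockout and below it in the wild type, while Avil lies below it on every array.

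As a set, 3 of the 10 genes (Scin, Aif1l and Efhd1) were among the clusters that passed limma's test at an adjusted p under 0.05, all 3 higher in the knockout, beside 0.527% of all clusters in either direction, 0.141% higher and 0.386% lower. None of the 3 passed when any 1 array was left out. Nothing is read from that count, because the genes were chosen with this contrast known. The groups did not overlap for 7 of the 10, 3 higher and 4 lower in the knockout, beside 57.1% of all clusters, 36.2% higher and 20.9% lower. The 4 lower ones were Gsn, Capg, Efhd2 and Ezr, all with absolute log2 differences under that of Scin, Aif1l and Efhd1 and none past the test. The median log2 difference of the 10 was -0.03, beside 0.12 over all clusters, which was 0.0029 after quantile normalization. The 6 genes other than Avil and the 3 high ones were above the guide to silent genes on all 4 arrays. In bulk RNA such as this, fewer cells of a type and less RNA per cell cannot be told apart.

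Replicates lay closer together in the wild type. The knockout gap was the larger one in 9 of the 10 genes, beside 65.1% of all clusters, and Avil was the exception. The median gap of the 10 was 0.25 log2 units between the knockout arrays and 0.09 between the wild-type arrays, beside 0.31 and 0.18 over all clusters. Scin, Aif1l, Efhd1, Capg and Avil had the higher knockout value on array 1, and the other 5 had it on array 2.

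**Figure D2:**
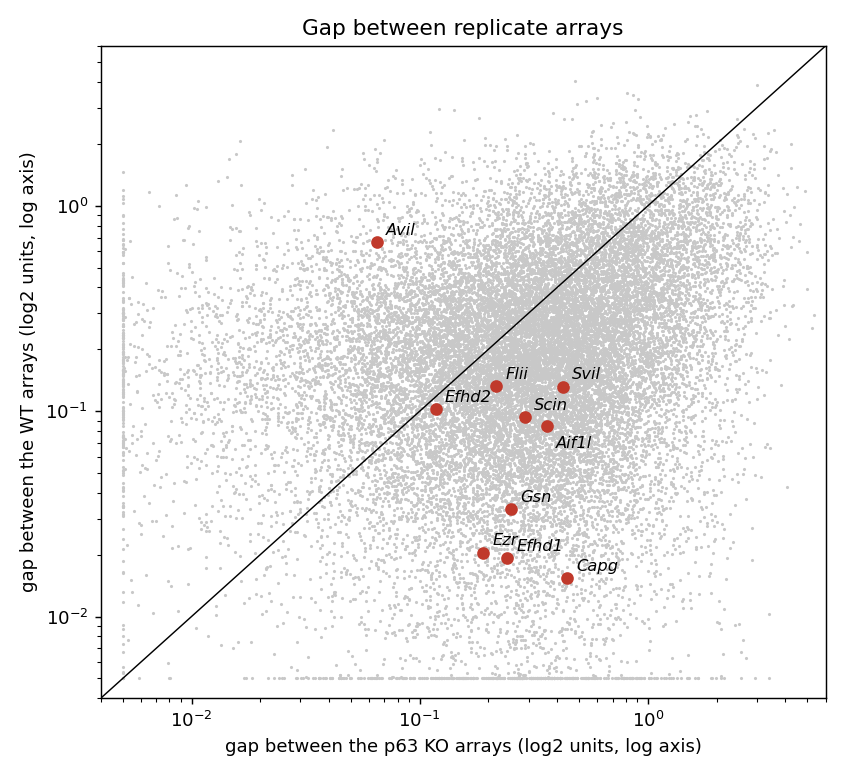
Gap between the 2 knockout arrays (horizontal) and between the 2 wild-type arrays (vertical) in log2 units, on log axes, for all clusters (grey) and the 10 genes (red). Gaps under 0.005 are drawn at 0.005, and points right of the line have the larger gap in the knockout, as 9 of the 10 genes do.

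The genes with profiles most like those of the 3 high genes were sought among the 14995 other clusters with 1 symbol, by the Euclidean distance between array values centred on each cluster's own mean over the 4 arrays. Nearest to Scin was Ptpn22, a phosphatase of immune cells, at a distance of 0.617, with 7.19 and 7.03 in the knockout, against 3.72 and 3.14 in the wild type. Next came Aif1l itself (0.689) and Cldn6, a tight junction claudin (0.705). Nearest to Aif1l were Cldn6 (0.384), the siderophore carrier Lcn2 (0.387) and the scramblase gene Plscr2 (0.507). Lcn2 was at 9.76 and 9.60 in the knockout, against 6.35 and 6.79 in the wild type. Nearest to Efhd1 were D630029K05Rik (0.344), Scel (0.382), a precursor of the cornified envelope, and the serpin gene Serpinb1b (0.421). With 4 arrays in 2 groups, such a likeness rests mainly on the size of the difference between the groups.

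**Figure D3:**
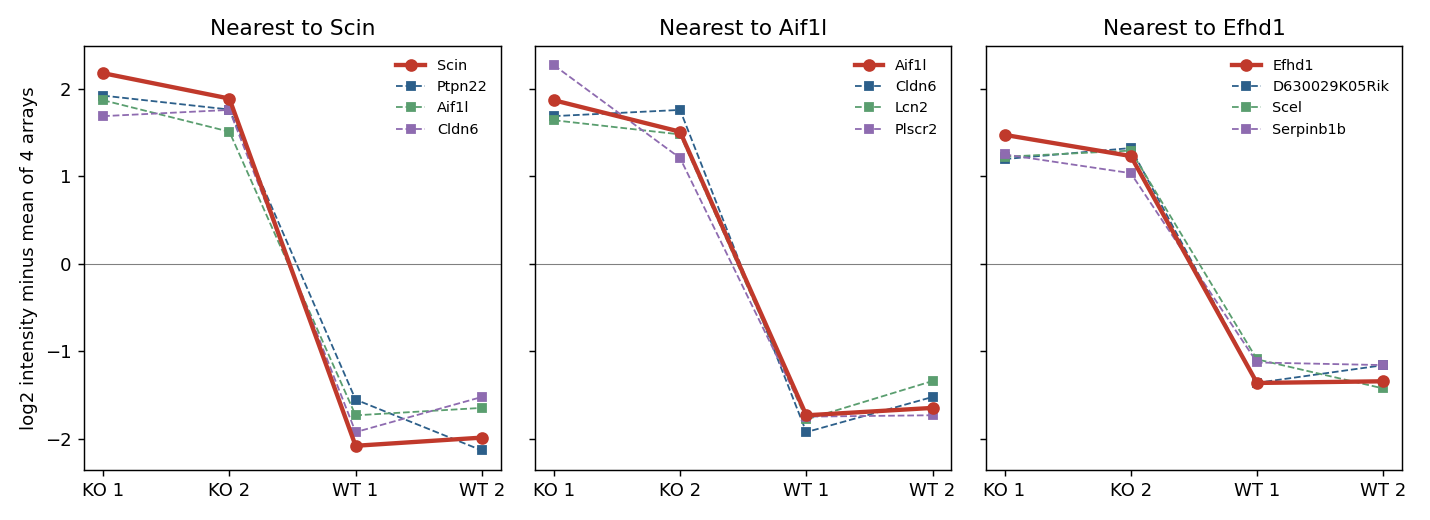
Log2 intensity minus the mean over the 4 arrays, for Scin, Aif1l and Efhd1 (red, solid) and the 3 clusters nearest to each (dashed), on knockout arrays 1 and 2 and wild-type arrays 1 and 2. The dashed lines follow the red ones at distances of 0.344 to 0.705, and Plscr2 drops most between the knockout arrays, with 7.08 on array 1 and 6.02 on array 2.

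Other actin regulators were read from 10 lists by role, with 146 of 180 listed genes measured under 1 symbol. None passed limma's test at an adjusted p under 0.05, beside 0.527% of all clusters. At an unadjusted p under 0.05, 22 were higher and 21 lower in the knockout, or 15.1% and 14.4%, beside 14.6% and 7.7% of all clusters. The shares over all clusters take in dim ones. Lower quartiles of the arrays were 4.06 and 4.06 in the knockout, against 3.80 and 3.82 in the wild type. Whether these shares differ was not tested. With dim clusters filtered out at the 25th percentile of mean level, 2 of the 138 left passed, Add3 and Lcp1, both lower, beside 2.07% of the 17499 clusters in that fit. The median log2 difference of the 146 was 0.01, and 76 of them, or 52.1%, were above 0, beside 60.3% of all clusters. The counts above 0 of single lists stand beside that 60.3%, and their medians beside the same median of 0.12 over all clusters. That median depends on the processing, at 0.036 with the filter and 0.0029 after quantile normalization.

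The villins, the other gelsolin relatives, were low in both groups, with Vil1 below the guide to silent genes on all 4 arrays and Vill just above it. Vil1, the villin of intestinal microvilli, was at 4.01 and 4.15 in the knockout, against 3.92 and 3.76 in the wild type. Its log2 difference of 0.24 was 0.0013 after quantile normalization. Vill averaged 5.40 ± 0.06 in knockout cultures and 5.34 ± 0.02 in wild-type cultures (SD, n = 2 each). Neither passed (limma adjusted p = 0.46 and 0.83).

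Of the actin genes themselves, 4 of 6 listed isoforms were measured, and all 4 had positive differences, with a median of 0.59. Actb, cytoplasmic beta-actin, was at 10.81 and 10.83 in the knockout, against 10.49 and 10.56 in the wild type (limma adjusted p = 0.36). The muscle isoform Acta1 averaged 5.19 ± 0.07 in knockout cultures and 4.46 ± 0.03 in wild-type cultures (adjusted p = 0.13 from the same fit). Acta2, of smooth muscle and myofibroblasts, was at 7.11 and 7.87 in the knockout, against 6.87 and 5.64 in the wild type, a spread within the groups of the same order as the difference.

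The genes of monomer binding and filament turnover had a median log2 difference of -0.25 over 23 genes, 7 of them above 0. Pfn2, a profilin that feeds actin monomers to growing ends, averaged 5.23 ± 0.34 in knockout cultures and 6.55 ± 0.12 in wild-type cultures (SD, n = 2 each; limma adjusted p = 0.10). Cfl1, cofilin, which severs aged filaments, was at 7.04 and 5.71 in the knockout, against 7.55 and 7.51 in the wild type, with most of the difference on knockout array 2. Wdr1, the cofilin cofactor, had a log2 difference of -0.70 (adjusted p = 0.14 from the same fit). Among 14 end-capping genes the median was -0.17, and its lowest values were those of Add3 and Add1, adducins that cap filaments at the spectrin-based membrane skeleton. Add3 was at 5.70 and 6.08 in the knockout, against 7.97 and 7.77 in the wild type, a log2 difference of -1.98 (limma adjusted p = 0.063). Add1 had a log2 difference of -0.83 (adjusted p = 0.11 from the same fit).

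The 19 measured genes of the Arp2/3 complex, which starts branched filaments, and of its activators had a median of -0.03. The subunit gene Arpc1a had the largest difference of that list, with 7.38 and 7.10 in the knockout against 8.53 and 8.47 in the wild type (log2 difference -1.25, limma adjusted p = 0.085). Wipf2, of the WASP-interacting proteins, had a log2 difference of -0.94 and its relative Wipf1 one of 0.68. The 18 formins and elongation factors had a median of 0.01, which was -0.0015 after quantile normalization. In that list, Cobl, a nucleator of actin filaments, was at 7.10 and 6.28 in the knockout, against 5.33 and 5.04 in the wild type (limma adjusted p = 0.13). The formins Fmnl2 and Daam1 had log2 differences of 0.70 and -0.80.

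Among 11 bundling and crosslinking genes the median was -0.10. The largest difference of the 146 genes was that of Lcp1, the bundling protein L-plastin, at 4.24 and 3.24 in the knockout, against 6.88 and 7.19 in the wild type (log2 difference -3.29, limma adjusted p = 0.069). Actn1, alpha-actinin of stress fibres, averaged 8.03 ± 0.15 in knockout cultures and 7.01 ± 0.08 in wild-type cultures (SD, n = 2 each; limma adjusted p = 0.099). Of 7 tropomyosins and calponins, 5 had positive differences, led by Cnn2, with 6.40 and 6.80 in the knockout against 5.18 and 5.13 in the wild type (limma adjusted p = 0.083). Cald1, caldesmon, had a log2 difference of 1.01 (adjusted p = 0.12 from the same fit) and Tpm4 one of -0.62.

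The membrane linkers and microvillus genes had a median of 0.25 over 21 genes, with 15 above 0. Prom1, a membrane protein of protrusions, had the widest spread, at 7.74 and 5.27 in the knockout, against 3.79 and 3.54 in the wild type (limma adjusted p = 0.19). Epb41l3, which links spectrin and actin to the membrane, had a log2 difference of 0.77 (adjusted p = 0.14 from the same fit).

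**Figure D4:**
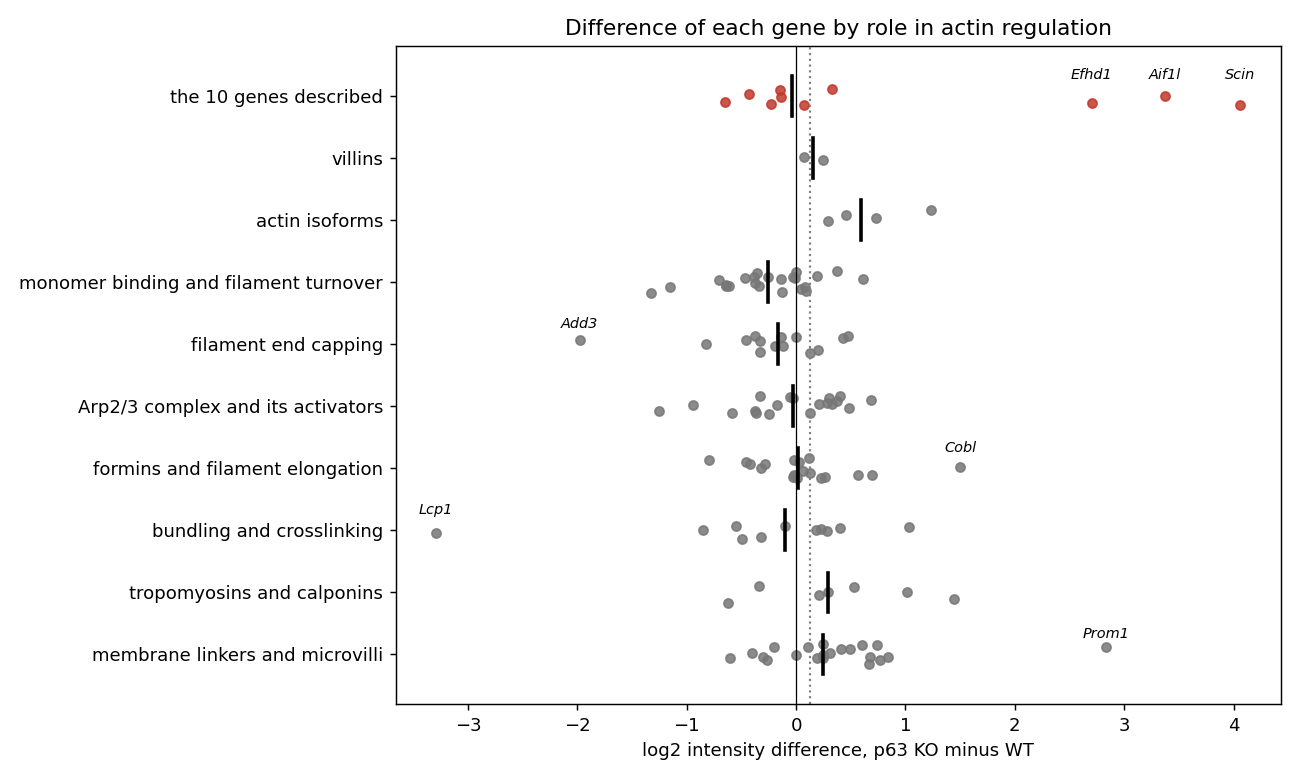
Log2 intensity difference, p63 knockout minus wild type, of the 10 genes described (red) and of the other actin regulators in 9 of the 10 lists by role (grey), 1 point per gene. Black bars are list medians, the dotted line is the median of all clusters at 0.12, and genes beyond 1.5 in size are named. Scin, Aif1l and Efhd1 lie between 2.70 and 4.06, above every other gene drawn except Prom1, which at 2.84 is above Efhd1.

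Several of the 10 genes are also expressed by cells other than epithelium, and markers of such cells were read on the same arrays. Levels of a list are given as the log2 of the summed linear intensities. For macrophages and leukocytes, 9 of 10 markers were measured, and the sums were 9.46 and 8.92 in the knockout, against 8.60 and 8.39 in the wild type. That sum was carried by Cd68 and Cd14, and the other 7, with Ptprc, Csf1r, Adgre1 and Aif1 among them, were at or below the guide to silent genes on all 4 arrays. For tuft cells, 5 of 7 were measured, with sums of 7.43 and 7.88 in the knockout, against 7.73 and 7.89 in the wild type. Dclk1, the brightest of them, was at 6.25 and 6.93 in the knockout, against 6.90 and 7.26 in the wild type. Pou2f3, the regulator of tuft cell fate, was at 4.90 and 5.22 in the knockout, against 4.80 and 4.40 in the wild type.

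Fibroblast and feeder cell markers (13 of 14 measured) had sums of 12.48 and 12.97 in the knockout, against 12.90 and 12.73 in the wild type. Sparc was the brightest of them, and single members lay apart, with log2 differences of 0.93 for Vim, -1.45 for Dcn and -2.33 for Lum. Smooth muscle markers (7 of 8, with Acta2 and Actg2 shared with the actin isoforms) had sums of 8.80 and 8.92 in the knockout, against 8.58 and 7.85 in the wild type. Acta2, Cnn1 and Tagln had log2 differences of 1.24, 1.19 and 0.51, and those of the rest ran from -0.24 to 0.46. Endothelial markers (6 of 6) had sums of 6.70 and 6.55 in the knockout, against 8.54 and 7.54 in the wild type. Pecam1 was at 4.63 and 4.29 in the knockout, against 6.94 and 5.67 in the wild type. The wild-type sum was carried by Pecam1, Emcn and Cdh5. The other 3 were at or below the guide to silent genes on every array, with log2 differences from -0.25 to 0.22. Neuron and Schwann cell markers (6 of 8) had sums of 7.23 and 7.26 in the knockout, against 8.25 and 8.28 in the wild type. The wild-type sum was carried mainly by Uchl1 and Snap25. Uchl1 fell by 2.85 on the log2 scale (limma adjusted p = 0.032), and Snap25 had a log2 difference of -2.16 (limma adjusted p = 0.094). Stmn2 of the same list did not pass (limma adjusted p = 0.11) and was at 4.38 and 5.19 in the knockout, against 3.21 and 3.12 in the wild type. The rest of that list had log2 differences from -0.20 to -0.03. The part of these cell types in the values of the 10 genes was not tested.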

How the data were processed

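Expression was measured in 2 p63 knockout and 2 wild-type cultures, 1 Affymetrix Mouse Exon 1.0 ST array each. The authors deposited log2 intensities for 23332 transcript clusters, a scale read from their range of 0.795 to 13.9. Affymetrix Expression Console and Partek, and build mm9, are named per the submitters' processing notes, without versions, and the sources used here give neither the summarisation nor the normalization. Array medians were 5.08 to 5.13 and lower quartiles 4.06 and 4.06 in the knockout, against 3.80 and 3.82 in the wild type. The number of arrays limits the precision.

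Names came from GEO's platform annotation, with 14996 clusters of 1 symbol, 1019 of several and 7317 with none listed. The brightest cluster stood for a gene. Knockout was set against wild type by limma 3.58.1 under R 4.3.3, a two-sided moderated test on the 4 arrays with neither covariates nor a filter, with Benjamini-Hochberg adjustment over all clusters and a threshold of 0.05. The fit had 2 residual and 2.2 prior degrees of freedom. An exact permutation test of 2 against 2 arrays cannot go below p = 0.333 and was not used. In 10 runs on simulated data for this comparison (23332 clusters, 200 changed), the fit recovered 79.9% of changes of 4 and 16.9% of changes of 2 on the log2 scale, with 5.33% of calls false.

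The 10 genes, the role lists and the marker lists were chosen with earlier results of these data known. Named were all 10 genes, up to 3 non-overlapping genes with the largest differences in each role list, the most abundant and most different markers, and a few genes fixed by name. Epcam, Krt5, Ptprc, Csf1r, Adgre1, Vim and Actg2 are named outside that rule, chosen after their values were seen. Alternatives were quantile normalization, median centring, a filter at the 25th percentile of mean level, an intensity trend in the prior, the replicate number as a block, the mean of all clusters of a gene, and leaving out each array. The separate result of 1 role list is not reported here, although its genes are in the count over all 10 lists. Promoter windows came from RefSeq on GRCm38.p6.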

Additional observations from a re-analysis of the deposited data

How the results depend on the processing

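Over all clusters, 123 passed in the fit reported, 105 after quantile normalization and 128 after median centring. The count was 362 with dim clusters filtered out at the 25th percentile of mean level, 303 with an intensity trend in the prior, and 0 without any 1 array. In the last fits the lone array of a group is assumed to vary like the other group. Among the other actin regulators the count of 0 became 2 (Add3 and Lcp1) with the filter and 1 (Add3) with the intensity trend, and was 0 under the remaining alternatives. The replicate number as a block gave 0 calls over all clusters and 0 among the other actin regulators. The labels state no pairing of same-numbered arrays. Their deviations from the group means had a correlation of 0.0188. With 2 arrays in each group that is a single value, which cannot decide whether they were paired.

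The lowest log2 differences under the alternatives were 3.88 for Scin (quantile normalization), 3.20 for Aif1l and 2.58 for Efhd1 (both without knockout replicate 1). The block, the filter, the trend and the cluster mean left these differences unchanged by construction. Leaving out 1 array cannot reverse the sign where groups do not overlap, so those signs are no test. Scin, Aif1l and Efhd1 passed the test with quantile normalization, median centring, the filter and the trend, and did not pass with the block. With 1 cluster each, the cluster mean used the same values for them. The filter takes the mean over all arrays, to which their high knockout values contribute. These genes were chosen with this contrast known, so nothing is read from these passes. The signs of Avil, Flii and Svil, whose groups overlap, changed when 1 array was left out. Detection flags were not used, so low levels are read against olfactory receptor clusters only.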
